A study of Mus musculus with 6 samples.

Results

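The TNF superfamily was followed through 10 genes, chosen by symbol: the ligand genes Tnf, Ltb, Tnfsf9, Tnfsf10, Tnfsf12, Tnfsf13, Tnfsf13b and Tnfsf14, and the TNF receptor genes Tnfrsf1a and Tnfrsf1b. All 10 were among the 21780 genes of the count table and among the 14429 protein-coding genes tested. RNA came from pancreatic myeloid cells gated as CD45+CD11b+, from wild-type C57BL/6 animals aged 6 to 8 weeks, and the study used males and females. Mice had received 1 mg of WGP, a particle of yeast β-glucan that is read by the receptor Dectin-1 on myeloid cells, or PBS as vehicle, by intraperitoneal injection, and the pancreas was taken on day 7. The comparison asks how the RNA of pancreatic myeloid cells differed between WGP and PBS mice, with 3 libraries of polyA RNA in each group. The study describes each library as a separate animal, all from the same experiment, so p-values measure the spread between animals of that experiment. The gate takes every CD11b+ leukocyte together, and in such bulk RNA fewer cells of a type and less RNA per cell cannot be told apart.

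TNF superfamily ligands are made as trimers in the cell membrane and are often cut off by proteases, and each binds its own set of receptors. Receptors with a death domain, such as TNFR1 (Tnfrsf1a), can start cell death or NF-κB signalling, whereas receptors without it, such as TNFR2 (Tnfrsf1b), recruit TRAF adaptors and drive NF-κB activity and survival. TNF is a main inflammatory product of macrophages and monocytes, BAFF and APRIL from myeloid cells feed B cells, and LIGHT and lymphotoxin connect myeloid cells with lymphocytes and stroma.

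The 250 bases upstream of the RefSeq start (GRCm38.p6) are shown for 3 members that passed the test below and whose window overlaps no annotated exon: Tnf fell, and Tnfrsf1b and Tnfsf14 rose. They are read 5′ to 3′ on the minus strand, on which all these genes lie, and capitals mark every match on either strand to GGG and CC around any 5 bases (κB-like), TTCNNNGAA (GAS-like), GAAA and GAAA around any 2 bases (ISRE-like) or TGANTCA (AP-1-like).
Tnf, chr17:35202008-35202257: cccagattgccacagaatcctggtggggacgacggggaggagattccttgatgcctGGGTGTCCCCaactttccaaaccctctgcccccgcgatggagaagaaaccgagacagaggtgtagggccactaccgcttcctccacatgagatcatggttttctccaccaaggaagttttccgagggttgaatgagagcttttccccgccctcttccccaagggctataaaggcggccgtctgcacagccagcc
Tnfrsf1b, chr4:145246871-145247120: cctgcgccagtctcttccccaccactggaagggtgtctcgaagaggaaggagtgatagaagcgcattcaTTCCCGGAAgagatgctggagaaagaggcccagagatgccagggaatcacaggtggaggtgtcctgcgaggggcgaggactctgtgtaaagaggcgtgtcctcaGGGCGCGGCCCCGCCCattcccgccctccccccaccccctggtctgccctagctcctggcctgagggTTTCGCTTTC
Tnfsf14, chr17:57194182-57194431: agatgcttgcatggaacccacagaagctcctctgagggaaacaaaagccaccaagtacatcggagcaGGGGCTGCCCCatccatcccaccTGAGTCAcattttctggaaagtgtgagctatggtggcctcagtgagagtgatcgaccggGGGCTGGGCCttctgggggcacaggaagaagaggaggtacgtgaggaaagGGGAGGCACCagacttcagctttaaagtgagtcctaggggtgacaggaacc
The Tnf window had a κB-like match that began 194 bases before the start. That of Tnfrsf1b had overlapping κB-like matches 77, 76 and 71 bases before it, a GAS-like match at 181 and an ISRE-like match at 10. In Tnfsf14, κB-like matches began 183, 182, 101 and 51 bases before the start, of which the first pair overlap, and an AP-1-like match began at 160. Of 32851 windows of this length, 45.8% held a κB-like, 7.02% a GAS-like, 2.98% an ISRE-like and 6.75% an AP-1-like match, so a κB-like match is common. A match describes letters and is no evidence of binding.

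The libraries held 35334645 to 43341834 counts, and levels are given in CPM, the usual depth-scaled count, here with edgeR's TMM scaling. The genes for the sort antigens, Ptprc (CD45) and Itgam (CD11b), were present in all libraries, at a summed 1203 to 1231 CPM in PBS and 1925 to 2135 CPM in WGP, and both rose. PBS replicate 1 stood apart from PBS replicates 2 and 3: its B cell marker list summed to 2849 CPM against 731 and 447, its neutrophil list to 4011 against 1902 and 973, and its macrophage list to 8305 against 14010 and 14530. Y-linked genes had 8972 and 10063 counts in PBS replicates 2 and 3 and 0 to 1 in the other libraries. So PBS replicate 1 was the only control without Y-linked reads. No WGP library had more than 1 such count, so treatment and the sex of the animals cannot be fully told apart. With Y-linked counts as a covariate, the contrast of WGP with PBS rests on PBS replicate 1 alone. Between groups, the Ly6C-high monocyte list summed to 699 to 1147 CPM in PBS and 3157 to 3561 CPM in WGP, with 4 of 6 markers higher, and the resident macrophage list to 4423 to 11850 and 867 to 1010 CPM, with 6 of 6 lower. The part of these cell types in the results below was not tested.

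Of the 10 genes, 4 passed the test (an adjusted p of at most 0.05 from edgeR's quasi-likelihood test, over all 14429 genes): Tnfrsf1b, Tnfrsf1a and Tnfsf14 rose and Tnf fell. Over all genes 14.4% passed, 7.54% higher and 6.81% lower in WGP. Of the risen genes, Tnfrsf1b and Tnfsf14 also reached a log2 fold change of 1, against 9.49% of all genes, 4.53% higher and 4.96% lower. In 6 of the 10 the PBS and WGP libraries did not overlap, beside 32% of all genes tested. The median absolute log2 fold change was 0.65 for the 10 genes and 0.54 for all genes, and the median signed value was -0.04 and -0.05. With library totals in place of TMM the median of all genes was -0.16, so directions below are relative to a centre that this scaling lowers.

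**Figure D1:**
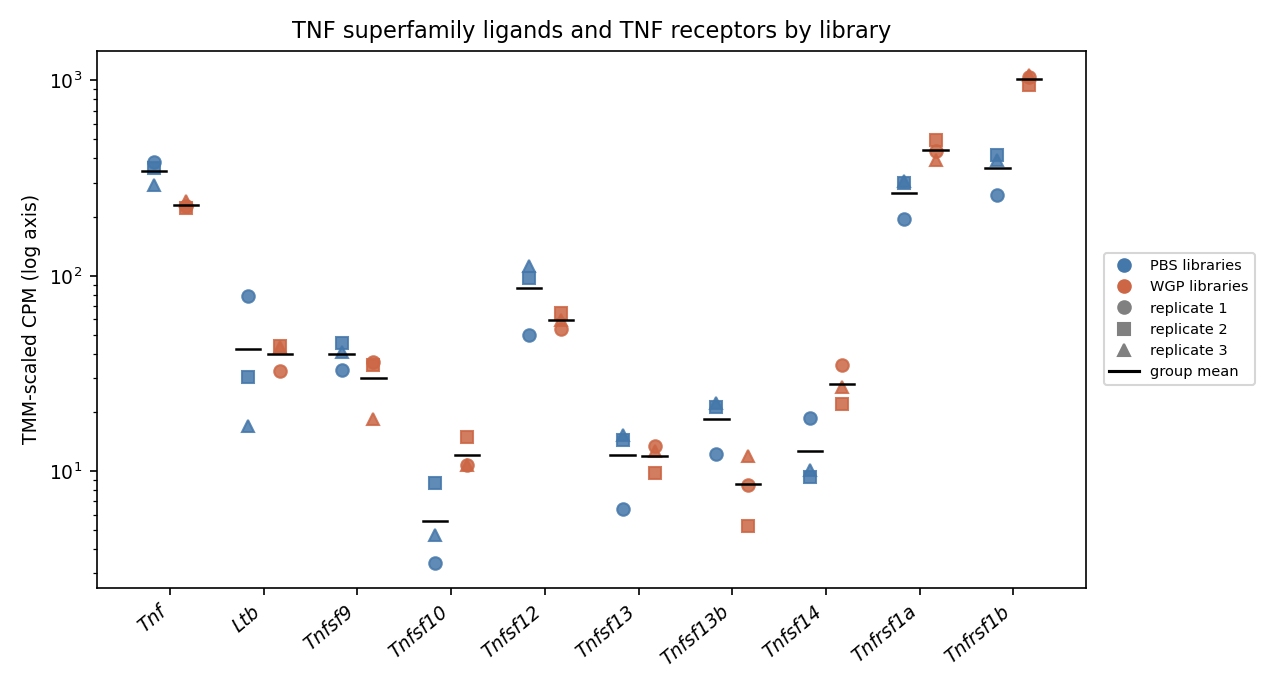
CPM (log axis) of the 10 genes in each library, PBS in blue and WGP in orange; the marker shape gives the replicate and the black bar the group mean. Tnfrsf1b sits at 258 to 414 CPM in PBS and 952 to 1065 in WGP, and Tnf is the only gene past the test that is lower in WGP.

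Tnf (chr17:35199381-35202007, minus strand, GRCm38), the cytokine that names the family, measured 383, 356 and 293 CPM in PBS replicates 1 to 3 and 228, 221 and 240 CPM in WGP. Every WGP library lay below every PBS library, and the WGP libraries lay close together. The means were 344 ± 46 and 230 ± 9.6 CPM (SD, n = 3), a 1.5-fold fall (log2 fold change -0.58, SE 0.15, 95% interval -0.91 to -0.25, edgeR adjusted p = 0.0249). This call was lost with the replicate number as a block (adjusted p = 0.0536), without PBS replicate 2 (0.102) and without WGP replicate 1, 2 or 3 (0.0896, 0.0702 and 0.0757), while the direction held. Tnf mRNA is short-lived in myeloid cells and its level alone does not give the amount of protein. By RT-qPCR the study itself reported more TNF-α mRNA after WGP in CD11b+ cells sorted from the pancreas. It also reported raised gene sets of TNF-α production from its RNA sequencing. The fall of Tnf seen here has the opposite direction to that RT-qPCR result, and the reason was not tested.

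Tnfrsf1b (chr4:145213463-145246870, minus strand), the gene of TNFR2, which myeloid and regulatory T cells carry, read 258, 414 and 392 CPM in PBS and 1044, 952 and 1065 CPM in WGP. Even the lowest WGP library was above every PBS library, and PBS replicate 1 was the lowest of all. The means were 355 ± 85 and 1020 ± 60 CPM (SD, n = 3), a 2.87-fold rise (log2 fold change 1.52, SE 0.19, 95% interval 1.09 to 1.95, edgeR adjusted p = 0.00049). It was the only one of the 10 genes to pass in all 18 alternative analyses, with log2 fold changes from 1.34 to 1.98.

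Tnfrsf1a (chr6:125349362-125362484, plus strand), the gene of the widely expressed TNFR1, read 196, 300 and 305 CPM in PBS and 437, 498 and 391 CPM in WGP. The groups did not overlap, and PBS replicate 1 was again the lowest. The rise was 1.65-fold (means 267 ± 61 and 442 ± 53 CPM, SD, n = 3; log2 fold change 0.73, SE 0.19, 95% interval 0.30 to 1.15, edgeR adjusted p = 0.0293). It did not pass without PBS replicate 2 (adjusted p = 0.0608) or without WGP replicate 1, 2 or 3 (0.0811, 0.0833 and 0.0521).

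The balance between the receptors was compared as the ratio of their read counts within each library, which needs no scaling. Tnfrsf1b had 1.31, 1.38 and 1.29 reads per Tnfrsf1a read in PBS and 2.39, 1.91 and 2.72 in WGP. The lowest WGP ratio was above the highest PBS ratio. The difference was 0.80 on the log2 scale, or 1.75-fold, and from 0.69 to 0.94 with any library left out. An exact two-sided permutation test gave p = 0.1, the smallest that 3 against 3 libraries can give, so this test cannot reach 0.05.

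**Figure D2:**
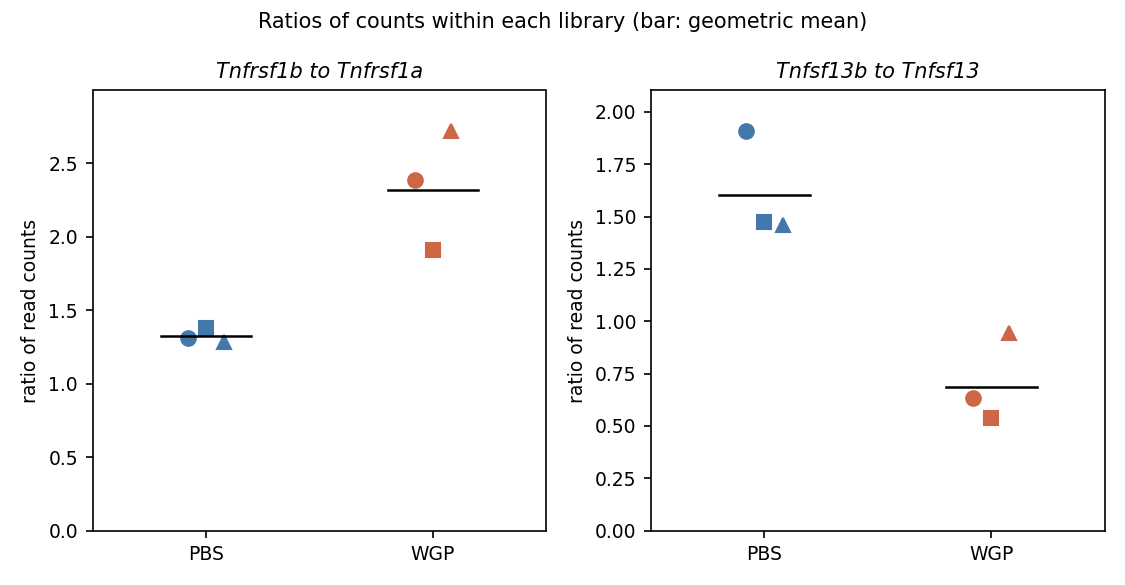
Ratio of read counts within each library, Tnfrsf1b to Tnfrsf1a on the left and Tnfsf13b to Tnfsf13 on the right, with the geometric mean as a bar. The first ratio is 1.29 to 1.38 in PBS and 1.91 to 2.72 in WGP, and the second 1.46 to 1.91 in PBS and 0.538 to 0.942 in WGP.

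Per kilobase of exon, which allows genes to be compared, Tnf was the most abundant of the 10 in PBS, at 210 ± 28 CPM per kilobase, above Tnfrsf1a at 103 ± 24 and Tnfrsf1b at 93.0 ± 22 (SD, n = 3). The receptors overlapped each other in PBS. In WGP the order was Tnfrsf1b at 267 ± 16, Tnfrsf1a at 171 ± 21 and Tnf at 140 ± 5.9, with no overlap between neighbours. The places below the first depend on the length used: per kilobase of coding sequence the PBS means were 488 for Tnf, 250 for Tnfrsf1b and 180 for Tnfrsf1a, and the WGP means 717 for Tnfrsf1b, 326 for Tnf and 298 for Tnfrsf1a. By either length Tnf was the first in PBS and Tnfrsf1b the first in WGP. Below them in PBS came Tnfsf12 at 57.2, Tnfsf9 at 30.7, Ltb at 27.8, Tnfsf13 at 7.35, Tnfsf14 at 6.88, Tnfsf13b at 2.71 and Tnfsf10 at 1.06 CPM per kilobase. From Tnfrsf1a to Ltb each gene overlapped the next in PBS, as did Tnfsf13 and Tnfsf14. In WGP Tnfsf12 (39.1), Ltb (26.3), Tnfsf9 (23.2), Tnfsf14 (15.2), Tnfsf13 (7.32), Tnfsf10 (2.30) and Tnfsf13b (1.25) followed, where Tnfsf9 overlapped both Ltb and Tnfsf14. Lengths are those of all annotated exons, and the isoforms in use were not measured. Tnfsf12 and Tnfsf13 share exon bases with a readthrough gene (described with APRIL below). If no counted read fell in those bases, which is not known, they can be left out of the length. The means of Tnfsf12 would then be 110 in PBS and 75.6 in WGP, and those of Tnfsf13 18.4 and 18.3 CPM per kilobase. By these means Tnfsf12 would stand above Tnfrsf1a and Tnfrsf1b in PBS, and Tnfsf13 above Tnfsf14 in WGP.

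LIGHT (Tnfsf14, chr17:57189492-57194177, minus strand) is a ligand that binds HVEM (Tnfrsf14) and the lymphotoxin β receptor (Ltbr). Tnfsf14 read 18.6, 9.29 and 10.2 CPM in PBS and 35, 22.2 and 26.9 CPM in WGP, without overlap, and replicate 1 was the highest in each group. It rose 2.21-fold (log2 fold change 1.14, SE 0.33, 95% interval 0.41 to 1.87, edgeR adjusted p = 0.0423). The call lay near the threshold: it was lost with library totals as scaling (adjusted p = 0.0782), with Y-linked counts as a covariate (0.384), without PBS replicate 2 or 3 (0.148 and 0.117) and without WGP replicate 1 or 3 (0.171 and 0.0974).

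Both LIGHT receptors rose as well. Tnfrsf14 read 19.6, 11.0 and 20.9 CPM in PBS and 134, 135 and 154 CPM in WGP, an 8.22-fold rise (log2 fold change 3.04, SE 0.24, edgeR adjusted p = 3.3e-05). Ltbr, which drives the non-canonical NF-κB pathway, read 63.9, 82.1 and 65.6 CPM in PBS and 120, 128 and 120 CPM in WGP (log2 fold change 0.80, SE 0.15, adjusted p = 0.00562). Neither receptor's groups overlapped, and both passed in all 18 alternatives.

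Lymphotoxin β (Ltb, chr17:35194439-35196320, plus strand), the membrane partner of lymphotoxin α and the other ligand of Ltbr, did not pass the test. Its libraries read 78.9, 30.5 and 17.1 CPM in PBS and 32.6, 43.7 and 43.3 CPM in WGP, so the PBS values spanned those of WGP (log2 fold change -0.08, SE 0.45, 95% interval -1.07 to 0.91, edgeR adjusted p = 0.941). Without PBS replicate 1 the log2 fold change was 0.74 (adjusted p = 0.124), and with Y-linked counts as a covariate it was -0.98 (0.081). The sign also turned with limma-voom, with the replicate block and without WGP replicate 1, so no direction is given for Ltb.

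TRAIL (Tnfsf10, chr3:27317028-27342427, plus strand), a ligand that triggers cell death through its receptor Tnfrsf10b, read 3.38, 8.68 and 4.69 CPM in PBS and 10.8, 14.9 and 10.7 CPM in WGP. The groups did not overlap, and the fold change was 2.17 (log2 fold change 1.12, SE 0.44, 95% interval 0.13 to 2.11), but it did not pass over all genes (edgeR adjusted p = 0.137, and 0.0696 to 0.295 over the alternatives, with a log2 fold change of up to 1.84 under the Y-linked covariate). Tnfrsf10b had 58, 0 and 0 counts in PBS and 3, 75 and 91 counts in WGP. With libraries from 0 to 91 counts, no difference could be detected (log2 fold change 1.44, SE 2.43, adjusted p = 0.77). The size was not stable: it was 3.64 with limma-voom, 6.45 with the replicate block and 8.775 without PBS replicate 1, where the remaining PBS libraries had 0 counts. The call did not change to a pass in any of these.

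CD137 ligand (Tnfsf9, chr17:57105325-57107757, plus strand), which costimulates T cells through Tnfrsf9, read 32.9, 45.3 and 40.8 CPM in PBS and 36.2, 35.2 and 18.5 CPM in WGP. WGP replicate 3 alone lay below the PBS range (log2 fold change -0.40, SE 0.27, 95% interval -1.01 to 0.20, edgeR adjusted p = 0.389). An antisense transcript, Gm11110, covers 14.9% of the exon bases of Tnfsf9, and reads there cannot be assigned if the counting ignored strand. Tnfrsf9 was low and the groups overlapped, at 6.40, 1.82 and 3.35 CPM in PBS and 5.59, 6.05 and 3.47 CPM in WGP (adjusted p = 0.776).

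TWEAK (Tnfsf12, chr11:69686250-69695849, minus strand), a macrophage ligand, has Fn14 (Tnfrsf12a), a receptor induced on injured epithelium and stroma, as its receptor. Tnfsf12 read 49.9, 97.4 and 113 CPM in PBS and 53.5, 64.9 and 59.5 CPM in WGP. PBS replicates 2 and 3 were above all WGP libraries, and PBS replicate 1 was below them. The log2 fold change was -0.55 (SE 0.26, 95% interval -1.13 to 0.04, edgeR adjusted p = 0.225). Without PBS replicate 1 it was -0.83 and passed (adjusted p = 0.00579), and with Y-linked counts as a covariate, which leaves PBS replicate 1 as the reference, it was 0.25. So the value for Tnfsf12 turned on that library.

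Tnfrsf12a fell, from 41.6, 28.2 and 12.5 CPM in PBS to 3.99, 7.36 and 4.77 CPM in WGP. The lowest PBS library was above the highest WGP library, and the fall was 5.10-fold (log2 fold change -2.35, SE 0.45, edgeR adjusted p = 0.00558), past the threshold in all 18 alternatives, with -2.95 under the Y-linked covariate. Markers of acinar cells, an epithelial type of the pancreas, were also lower in WGP, 6 of 6 past the test. The acinar list summed to 1660, 4130 and 978 CPM in PBS replicates 1 to 3 and 271 to 498 CPM in WGP. Within PBS it was highest in replicate 2, whereas Tnfrsf12a was highest in replicate 1, as were the B cell and neutrophil lists. Of 5 fibroblast markers, a stromal type, all were higher in WGP and none passed the test. The part of any of these cell types in the fall of Tnfrsf12a was not tested.

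BAFF (Tnfsf13b, chr8:10006467-10039072, plus strand) is a survival factor of B cells, and APRIL (Tnfsf13, chr11:69682846-69685784, minus strand) supports plasma cells. Tnfsf13b read 12.2, 21.3 and 22.2 CPM in PBS and 8.52, 5.26 and 12 CPM in WGP. The groups did not overlap by a small margin, between PBS replicate 1 and WGP replicate 3. The log2 fold change was -1.11 (SE 0.39, 95% interval -1.98 to -0.25) and did not pass over all genes (edgeR adjusted p = 0.0901). Without PBS replicate 1 it was -1.34 and passed (adjusted p = 0.0375), and with Y-linked counts as a covariate it was -0.51 (0.595). Tnfsf13 read 6.40, 14.4 and 15.2 CPM in PBS and 13.4, 9.77 and 12.7 CPM in WGP, with the WGP libraries inside the PBS range (log2 fold change -0.01, SE 0.39, 95% interval -0.87 to 0.85, adjusted p = 0.996).

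The ratio of BAFF to APRIL reads separated the groups, at 1.91, 1.47 and 1.46 in PBS and 0.634, 0.538 and 0.942 in WGP. The lowest PBS ratio was above the highest WGP ratio. The ratio was 2.34-fold lower in WGP (log2 difference -1.22, and -1.45 to -1.05 with any library left out; exact two-sided permutation p = 0.1, the smallest possible). These are read counts, not corrected for the longer exons of Tnfsf13b. A readthrough gene, Tnfsfm13, shares 48.3% of the exon bases of Tnfsf12 and 60% of those of Tnfsf13 on the same strand, so those genes' reads may have been split or left out in counting. Tnfsfm13 itself read 8.64, 16.9 and 16.0 CPM in PBS and 8.77, 13.4 and 15.0 CPM in WGP (log2 fold change -0.16, adjusted p = 0.839), and adding its counts to Tnfsf13 gave a log2 difference of the ratio of -1.13. With those counts added, APRIL reads outnumbered BAFF reads in every library, so which of them has more reads in PBS depends on the readthrough gene.

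The receptors of BAFF and APRIL are found mainly on B cells and plasma cells. BAFF receptor (Tnfrsf13c) read 135, 28.4 and 14.1 CPM in PBS and 5.70, 9.12 and 2.44 CPM in WGP, a 10.3-fold fall (log2 fold change -3.36, SE 0.78, edgeR adjusted p = 0.0161). TACI (Tnfrsf13b) read 111, 70.5 and 52.0 CPM in PBS and 51.4, 41.3 and 38.6 CPM in WGP, also without overlap (log2 fold change -0.83, SE 0.26, adjusted p = 0.0629). BCMA (Tnfrsf17) read 6.01, 4.44 and 8.65 CPM in PBS and 0, 1.30 and 0 CPM in WGP (log2 fold change -3.86, SE 1.66, adjusted p = 0.172). The groups did not overlap in any of these receptors, and PBS replicate 1 was the highest library for Tnfrsf13c and Tnfrsf13b.

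The B cell list moved in the same direction, with 5 of 7 markers lower and none higher past the test, at a summed 447 to 2849 CPM in PBS and 138 to 258 CPM in WGP, and its part in these receptors was not tested. The call for Tnfrsf13c was lost with limma-voom (adjusted p = 0.165) and without WGP replicate 1 or 3 (0.0654 and 0.0626). Its size turned on PBS replicate 1, the library with the highest B cell list: without it the log2 fold change was -1.89 (adjusted p = 0.0401), and with Y-linked counts as a covariate it was -4.55. Tnfrsf13b passed in 5 of 18 alternatives, among them DESeq2 (0.0317), library totals (0.0475) and without PBS replicate 3 (0.0168). Tnfrsf17 passed with limma-voom (0.0244) and without WGP replicate 2 (0.00137), the only WGP library with its reads. Its log2 fold change was -6.66 with limma-voom, -7.09 with the replicate block and -10.96 without WGP replicate 2. With 0 counts in most WGP libraries its size is not well measured.

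**Figure D3:**
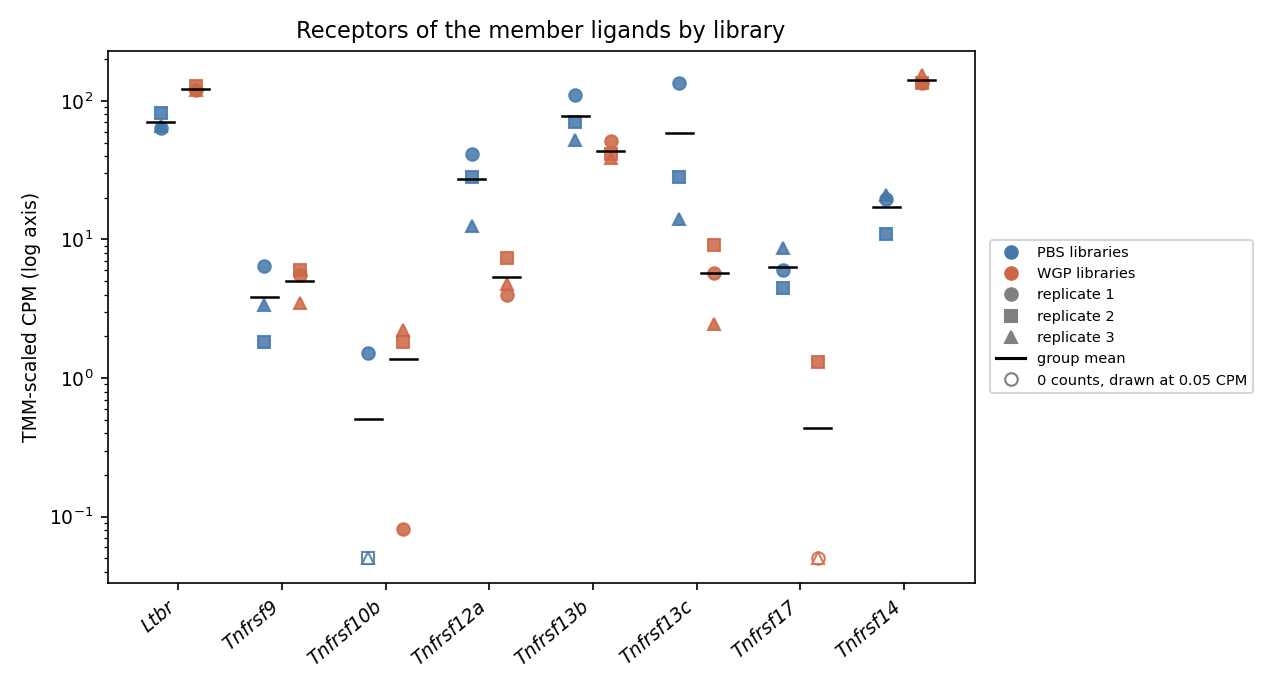
CPM (log axis) of the receptors of the member ligands in each library, PBS in blue and WGP in orange, with the replicate as the shape and the group mean as a bar; open markers stand for libraries with 0 counts. Tnfrsf14 lies at 11.0 to 20.9 CPM in PBS and 134 to 154 in WGP, while Tnfrsf12a and Tnfrsf13c are lower in WGP.

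**Figure D4:**
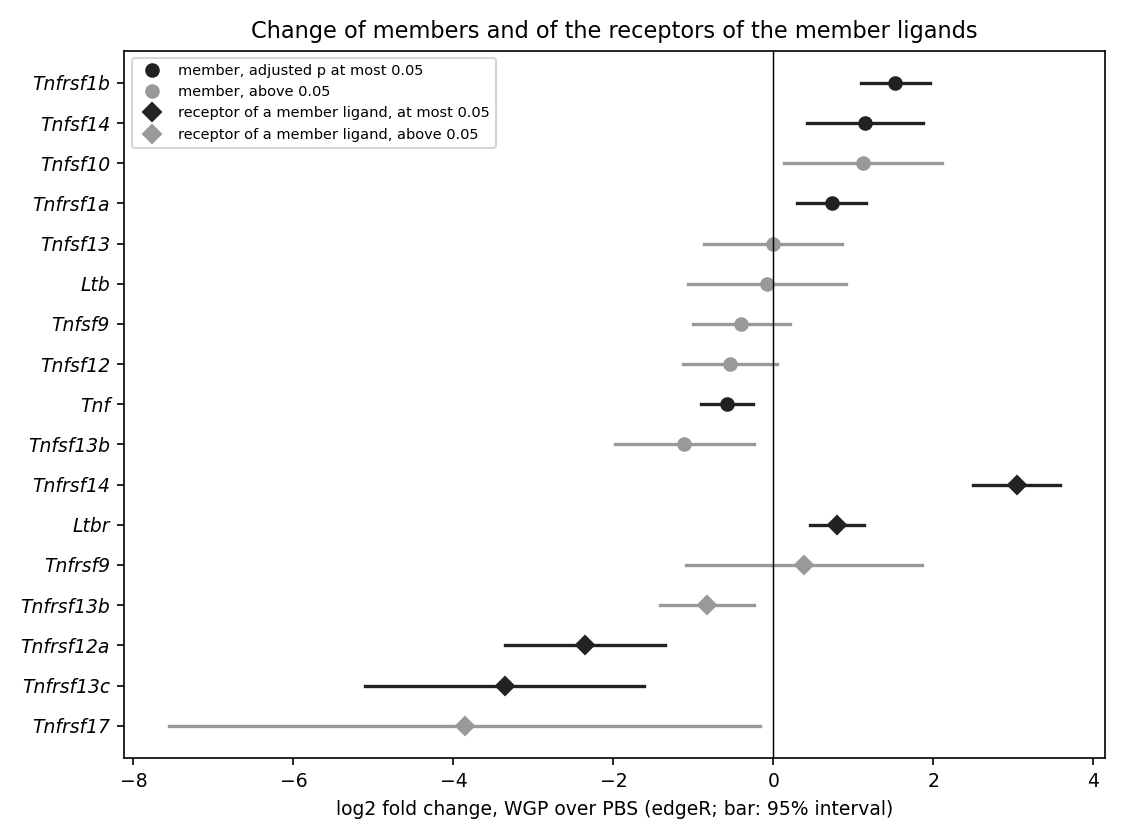
Log2 fold change of WGP over PBS (edgeR) with its 95% interval for the members (circles) and the receptors of the member ligands (diamonds; Tnfrsf10b is left out for its wide interval). Black marks an adjusted p of at most 0.05: Tnfrsf1b, Tnfsf14, Tnfrsf1a, Tnfrsf14 and Ltbr are above 0, and Tnf, Tnfrsf12a and Tnfrsf13c below.

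Of the 8 receptors of the member ligands, 4 passed: Tnfrsf14 and Ltbr rose, and Tnfrsf12a and Tnfrsf13c fell. In the whole family of 46 ligand and receptor genes 10 passed, 7 higher and 3 lower, or 21.7% beside 14.4% of all genes. None of the 10 other ligand genes passed, and they were sparse: 4 had 0 counts in all libraries of a group. Of the 18 other receptor genes 2 passed, or 11.1%, and both rose. Fas, a death receptor, read 10.3, 9.78 and 17.7 CPM in PBS and 43.8, 71.7 and 51.9 CPM in WGP (log2 fold change 2.15, edgeR adjusted p = 0.000799). Cd40, through which T cells activate myeloid and B cells, read 50.4, 65.5 and 43.9 CPM in PBS and 124, 136 and 92.5 CPM in WGP (log2 fold change 1.15, adjusted p = 0.00379). The groups did not overlap in Fas or Cd40, and both calls held in all 18 alternatives.

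Around the receptors, 16 of 51 pathway genes passed, 14 higher and 2 lower, which is 31.4% beside 14.4% of all genes. Only 5 of the 51 also reached an absolute log2 fold change of 1, beside 9.49% of all genes. Their median absolute log2 fold change was 0.39, below the 0.54 of all genes, so the changes were not larger than elsewhere. Among 9 genes of ligand release and cleavage, 4 rose and 1 fell, or 55.6%, and 2 of the 9 also reached an absolute log2 fold change of 1. ADAM17, the protease that sheds TNF and its receptors, was higher: Adam17 read 141, 167 and 164 CPM in PBS and 350, 378 and 332 CPM in WGP (log2 fold change 1.17, edgeR adjusted p = 0.000382). The genes of its partners, the iRhoms, went opposite ways. Rhbdf2 rose from 116, 122 and 123 to 176, 237 and 179 CPM (log2 fold change 0.71, adjusted p = 0.0118), a call lost without PBS replicate 2 (0.0519). Rhbdf1 fell from 47.6, 63.2 and 52.5 to 3.55, 9.04 and 3.03 CPM (log2 fold change -3.38, adjusted p = 0.000366; -4.05 without WGP replicate 2). The groups did not overlap for either iRhom. Furin, whose product activates ADAM17 and cleaves several ligands, rose by 0.90 on the log2 scale (adjusted p = 0.00422), and Sppl2a, a protease that cuts the TNF stub in the membrane, rose by 0.86 on the log2 scale (adjusted p = 0.0169), a call lost without PBS replicate 2 or WGP replicate 2.

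Among 25 genes of the receptor complex, 5 rose and 1 fell, or 24% in all, beside 14.4% of all genes. Only 2 of the 25 also reached an absolute log2 fold change of 1, beside 9.49% of all genes. The median absolute log2 fold change of this list was 0.33, against 0.54 for all genes. Tnip1, a partner of A20 that restrains NF-κB, read 101, 70.6 and 64.4 CPM in PBS and 273, 276 and 241 CPM in WGP (log2 fold change 1.74, edgeR adjusted p = 0.000187). Traf1, an adaptor of TNFR2, read 89.4, 57.0 and 52.0 CPM in PBS and 181, 153 and 156 CPM in WGP (log2 fold change 1.30, adjusted p = 0.00219). In Tnip1 and Traf1 alike PBS replicate 1 was the highest control and was below every WGP library. Birc3, which encodes a ubiquitin ligase of the complex, rose by 0.67 on the log2 scale (adjusted p = 0.00867), a call lost with Y-linked counts as a covariate (0.06). Sharpin and Rnf31, subunits of the linear ubiquitin ligase, rose by 0.56 and 0.54 on the log2 scale (adjusted p = 0.0263 and 0.0319), each lost in 8 of 18 alternatives. Tnfaip3, which encodes A20 and was named after its values were seen as the only fall, read 910, 956 and 837 CPM in PBS and 737, 522 and 484 CPM in WGP (log2 fold change -0.63, adjusted p = 0.0424), lost in 5 of 18 alternatives.

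Of 6 genes of the death arm 3 rose and none fell, or 50% beside 14.4% of all genes, and 1 of the 6 also reached a log2 fold change of 1. Mlkl, the pore former of necroptosis, read 8.98, 12.3 and 13.3 CPM in PBS and 27.6, 49.1 and 35.9 CPM in WGP (log2 fold change 1.70, edgeR adjusted p = 0.00241). Ripk3, the kinase upstream of it, and Cflar, an inhibitor of caspase-8, rose by 0.83 and 0.65 on the log2 scale (adjusted p = 0.0357 and 0.038), lost in 7 and 6 of 18 alternatives. Among those, Cflar did not pass without PBS replicate 1 (adjusted p = 0.0536) and Ripk3 did not with the Y-linked covariate (0.34). Among 11 genes that control Tnf mRNA 2 rose, or 18.2%, near the 14.4% of all genes, so this list does not stand out. Mapkapk2, a kinase that stabilises Tnf mRNA, read 282, 366 and 351 CPM in PBS and 590, 572 and 596 CPM in WGP (log2 fold change 0.82, adjusted p = 0.00442), and Rc3h2, which encodes a Roquin protein that promotes its decay, rose by 0.79 on the log2 scale (adjusted p = 0.0093). Tnf itself was lower in the same libraries.

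**Figure D5:**
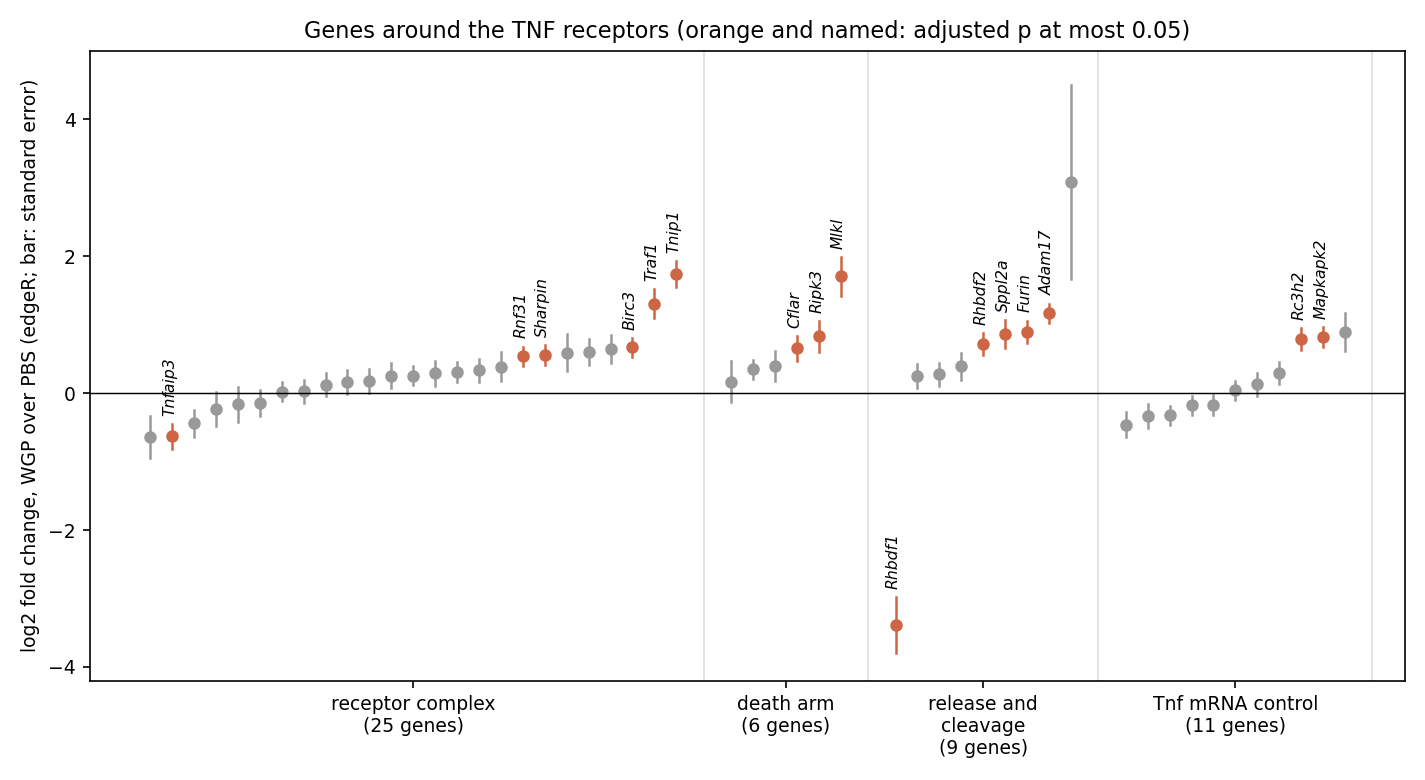
Log2 fold change of WGP over PBS (edgeR; bar, standard error) for the 51 genes around the receptors, in order of size within each list. Orange genes, which are named, passed an adjusted p of 0.05: Tnip1, Mlkl and Adam17 are among the highest of their lists, and Rhbdf1, at -3.38, is the lowest of all.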

How the data were processed

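Polyadenylated RNA of sorted pancreatic CD45+CD11b+ cells was sequenced in 75-base single-end reads, in 3 PBS and 3 WGP libraries from 10 ng of RNA each. The authors aligned reads to mm10 with STAR 2.6 and deposited raw counts per Ensembl gene from HTSeq 0.10.0, per the submitters' processing notes, with 1 column per library and no normalization. Strand setting, annotation release and duplicate handling were not given in the sources used here, so where several reads stem from 1 molecule, low counts are less precise than they look. Library totals were 35334645, 38419377 and 40580936 counts (PBS) and 38240913, 43341834 and 41990018 counts (WGP).

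Protein-coding genes of GENCODE vM21 whose RLE-scaled counts reached a sum of 10 over all libraries were tested, 14429 in all. WGP was compared with PBS by the quasi-likelihood test of edgeR 4.0.16 with TMM scaling and Benjamini-Hochberg adjustment, in R 4.3.3. An adjusted p of at most 0.05 counted as passing, and 95% intervals are not adjusted for many genes. The script was tested on simulated counts. Promoter windows and coordinates came from RefSeq and GENCODE on GRCm38, and windows were found for 8 of the 10 genes. Alternatives used DESeq2 1.42.0, limma 3.58.1 (voom), other scalings and filters, thinned counts, a replicate block, Y-linked counts as a covariate, and each library left out. Adding the readthrough counts and leaving shared exons out of lengths were chosen after seeing the data. The members and gene lists were chosen with earlier results of these data known. The genes named were all 10 members, all receptors of the member ligands and, of each other list, at most the 5 genes with the smallest p past the test. Tnfaip3 and Timp3 fall outside this rule and were named after their values were seen.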

Additional observations from a re-analysis of the deposited data

How the results depend on the processing

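The number of the 10 genes that passed was 4, and 3 to 4 in all alternatives other than leaving out a library, which gave 1 to 6. It was 1 (Tnfrsf1b) without PBS replicate 2, WGP replicate 1 or WGP replicate 3, 2 without WGP replicate 2 and 6 without PBS replicate 1. The same library exclusions gave 6 to 13 family genes, 9 to 16 pathway genes and 1417 to 2203 genes in all. Numbers shared between PBS and WGP libraries did not pair them (correlations 0.049, -0.08 and 0.07 over 11681 genes). With the replicate number as a block 3 members, 10 family genes, 14 pathway genes and 1947 genes in all passed, and Tnf was lost. Directions that turned all belonged to genes that did not pass: Ltb gave 0.22 with limma-voom and 0.21 with the block, -0.98 with the Y-linked covariate, and -0.45 to 0.74 with a library left out. Tnfsf13 gave 0.063 with limma-voom, 0.0068 with thinned counts, 0.071 with the block and 0.90 with the Y-linked covariate, and -0.31 to 0.20 with a library left out. With the Y-linked covariate Tnfsf12 gave 0.25, Tnfrsf9 -0.35 and Tnfrsf10b -0.14, on the log2 scale. With library totals as scaling 43% of all genes past the test were higher in WGP, against 52.5% with TMM. The cause was not tested. For the sparse genes Tnfrsf10b and Tnfrsf17, which had 0 counts in some libraries of a group, what sets the scatter was not tested.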

Other observations

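Timp3, an inhibitor of ADAM17 that was named after its values were seen, read 0.94, 1.23 and 2.10 CPM in PBS and 0.46, 35.3 and 0.46 CPM in WGP, and did not pass the test. WGP replicate 2 also had the highest fibroblast list, at 1431 CPM against 29.7 to 159 CPM in the other libraries. Without that library the count of the 10 genes past the test was 2, Tnfrsf1b and Tnfsf14.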
